A study of Mus musculus with 6 samples.

Results

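Vascular endothelial growth factor (VEGF) and angiopoietin signalling was followed across the cell types of the mouse olfactory bulb through 10 genes, which are 10 of the 18560 genes of the count table. They were taken by name as the 3 VEGF ligands Vegfa, Vegfb and Vegfc, the 2 angiopoietins Angpt1 and Angpt2, the 3 VEGF receptors Flt1, Kdr and Flt4, the angiopoietin receptor Tek and its partner Tie1. Cells from dissociated bulbs of C57BL/6NJ mice aged 14 weeks were captured in droplets and sequenced as 6 libraries, 2 from mice labelled with no manipulation (control), 2 after naris occlusion and 2 after training on odour discrimination, both lasting 6 weeks. Each library was a pool of 3 mice, male in replicate 1 and female in replicate 2, so sex and replicate number cannot be told apart. The labels describe unmanipulated control mice, while the study's text also names the open side of occluded mice as the control, and which of these the libraries hold was not settled here. Occlusion was unilateral. The trained mice were water deprived and worked for a water reward, and the paper names no such deprivation for the others. Training and water deprivation therefore cannot be told apart here. All mice were wild type, and some olfactory epithelium was taken along with the bulbs.

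VEGF ligands bind receptor tyrosine kinases on the vessel wall. Kdr transmits most of the growth and permeability signal of Vegfa, Flt1 binds Vegfa tightly and also takes up Vegfb, and Flt4 is the receptor of Vegfc and is best known from lymphatic vessels. Angpt1, typically made by cells around the vessel, activates Tek and keeps vessels quiet, while Angpt2, typically stored and released by endothelial cells, often opposes it during vessel remodelling. In the brain, endothelial cells carry the receptors, mural cells (pericytes and smooth muscle) wrap them, and astrocyte endfeet cover the outer wall.

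The authors assigned 51426 cells to 38 clusters, which were grouped here into 12 cell classes by their names. Counts are of unique molecular identifiers (UMIs), that is of transcript molecules, and a level is given as CPM, the UMIs of a gene divided by all UMIs of the cluster or class in a library and scaled to the same total, as mean ± SD over the 6 libraries. Libraries held 11841160 to 17065083 UMIs, and trained replicate 1 had the lowest median depth, 1028 UMIs per cell, and the highest median mitochondrial share, 14.4% against 9.25% to 11.6% in the other libraries. Of 49931 barcode sequences, 1461 occurred in 2 or more libraries. Of 76 marker genes listed for the 12 classes, 71 were highest in a cluster of their own class, among them 8 of 8 endothelial and 8 of 8 mural markers.

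Of 6 clusters examined for cells with markers of more than 1 class, 3 bear on the levels that follow. In Mural1 (158 cells), 100% of cells had UMIs of at least 2 endothelial and at least 2 mural markers, against 10.0% of cells in the endothelial cluster EC1 and 9.75% in Mural2. The median depths of these clusters were 3508, 1621 and 1349 UMIs, and the marker shares were not set to equal depth. Of the arterial vessel markers, 4 of 6 were highest in Mural1. In the neuronal cluster N11 (951 cells), 61.1% of cells had at least 2 endothelial and at least 2 neuronal markers, and 47.3% had at least 2 astrocyte markers. Only 291 of its cells were kept in the authors' later annotation of neurons, and Flt1 stood at 149 CPM in those and at 499 CPM in the 660 cells left out of it. In EC2 (1124 cells, median 750.5 UMIs), 27.3% of cells had at least 2 endothelial and at least 2 astrocyte markers, against 18.5% in EC1, and the astrocyte markers summed to 2796 CPM, against 522 in EC1.

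Flt1 was the most abundant of the 5 receptors, and each of them was highest in EC1, the larger of the 2 endothelial clusters. Flt1 (chr5:147561604-147726438, GRCm38) reached 1813 ± 155 CPM (n = 6 libraries) in EC1. The next levels were 1561 ± 154 in Mural1, 1022 ± 63.3 in the shallower endothelial cluster EC2 and 476 ± 171 in N11, each step larger than the SDs of its neighbours. In Mural2, the mural cluster with few endothelial markers, Flt1 stood at 73.8 ± 32.1 CPM. A Flt1 UMI was found in 80.3% of endothelial cells (95% Wilson interval 79.0% to 81.6%; median 1355.5 UMIs per cell) and in 1.55% of olfactory ensheathing cells (OECs), the glia of the olfactory nerve (median 1753 UMIs). After each cell was thinned to 500 UMIs, these shares were 53.6% and 0.528%. Intervals cover counting error only.

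Kdr (chr5:75932827-75979072), the main signalling receptor of Vegfa, was highest in EC1 at 312 ± 57.0 CPM. Mural1 followed at 234 ± 66.7, lower by more than either SD, then EC2 at 194 ± 62.8, which did not differ from Mural1 beyond the spread, and N11 at 67.3 ± 21.1. Flt4 (chr11:49609679-49652739) was the least abundant receptor by UMIs, with 261 in all annotated cells. It reached 37.5 ± 5.37 CPM in EC1, 20.9 ± 10.5 in Mural1 and 12.98 ± 10.98 in EC2, and 18 of 38 clusters had none.

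Tek (chr4:94739086-94874976), which binds both angiopoietins, stood at 278 ± 24.6 CPM in EC1 and 250 ± 80.8 in Mural1, and these did not differ beyond their spread. EC2 followed at 154 ± 30.8. In the 2 control libraries alone, the mean of Tek was higher in Mural1 than in EC1. Tie1 (chr4:118471191-118489849), which modifies signalling by Tek, was at 184 ± 24.1 CPM in EC1, above 128 ± 27.0 in Mural1 by more than either SD, and at 100.4 ± 17.3 in EC2. Over the 38 clusters, the median cluster held 11.7 CPM of Flt1, 4.79 of Kdr, 2.47 of Tek, 1.73 of Tie1 and 0.195 of Flt4.

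**Figure D1:**
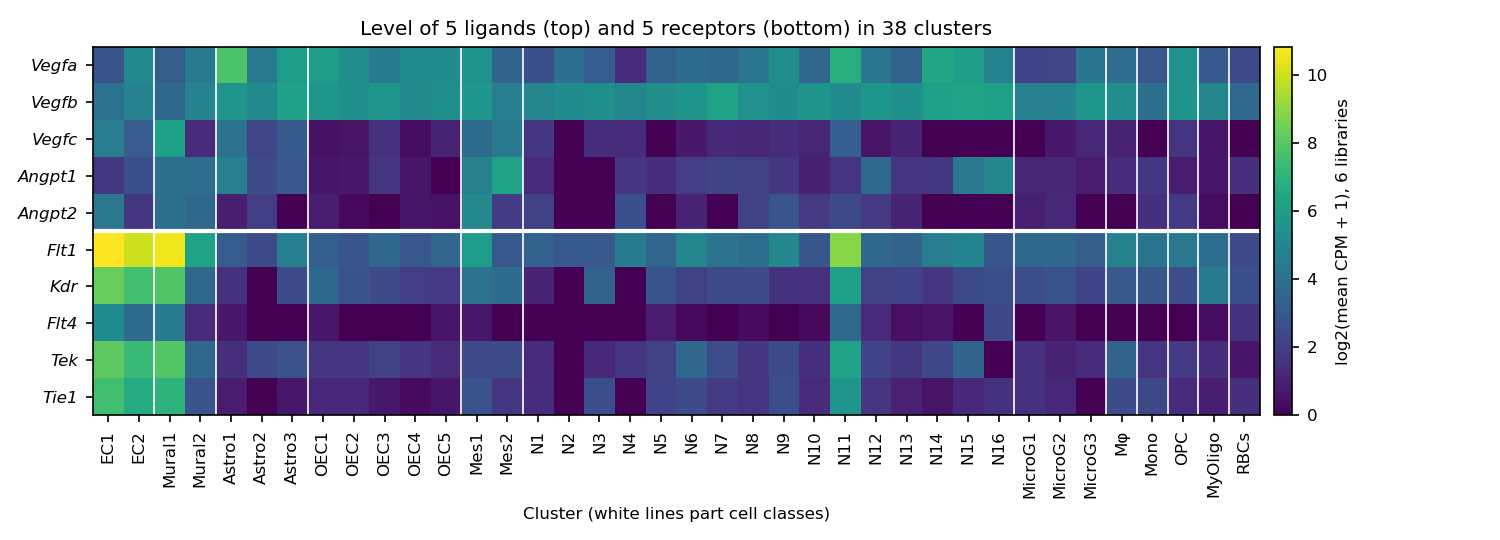
Level of the 10 genes (rows, ligands above the thick line and receptors below it) in each of the 38 clusters (columns), as the log2 of the mean CPM over 6 libraries plus 1, with thin white lines between cell classes. The 5 receptors are brightest in EC1, EC2 and Mural1 and again in N11, Vegfa is brightest in Astro1 and Vegfb varies least, with its lowest level, 11.4 CPM, in Mural1.

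Kdr and Tek held similar proportions to Flt1 in the 4 clusters with the most of it. Kdr made up 14.9% of the UMIs of Kdr and Flt1 together in EC1 (95% Wilson interval 14.2% to 15.6%), 15.7% in EC2, 12.9% in Mural1 and 13.3% in N11. Tek, set against Flt1 in the same way, made up 13.3% in EC1, 13.3% in EC2, 13.5% in Mural1 and 12.9% in N11. Tie1 made up 9.26%, 8.88%, 7.52% and 9.14% in these clusters, and Flt4, with few UMIs, 2.05%, 1.36%, 1.496% and 2.43%.

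Among the 18 clusters with at least 50 UMIs of Kdr and Flt1 together, 8 had an interval wholly above that of EC1 and 0 had one wholly below it. In 4 of the 8, every library lay above the range over libraries in EC1, and in the other 4 (N8, N13, OEC3 and OEC4) the ranges overlapped. The share was lower than in EC1 in some neuronal clusters, such as N6 with 5 UMIs of Kdr against 63. The highest shares of the 18 were in myelinating glia and OECs, where both genes were at far lower levels. In myelinating oligodendrocytes (858 cells), Kdr had 61 UMIs against 44 of Flt1, or 58.1% (interval 48.5% to 67.1%), and in single libraries the share lay between 30.0% and 88.9%. In the ensheathing cluster OEC1 (2252 cells), Kdr had 54 UMIs against 45 of Flt1, or 54.5% (44.8% to 64.0%), and between 33.3% and 69.6% in single libraries. The range over libraries in EC1 was 12.2% to 17.8%, so it did not overlap with either. Tek had 6 UMIs against 44 of Flt1 in oligodendrocytes, or 12% (5.62% to 23.8%), an interval that holds the share in EC1. In OEC1 it had 10 against 45, or 18.2% (10.2% to 30.3%), and in the whole OEC class 51 against 188, or 21.3% (16.6% to 27.0%), which lies above the interval of EC1 (12.6% to 13.98%). In single libraries the Tek share lay between 11.4% and 27.0% in the OEC class, which overlaps with 12.7% to 15.0% in EC1. The level of Kdr itself stayed low, at 21.1 ± 12.3 CPM in oligodendrocytes and 11.2 ± 6.57 in OEC1, and 1.05% of oligodendrocytes kept a Kdr UMI at 500 UMIs per cell. The clustering used the counts of these genes too, so the shares are given as a description, with no test.

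**Figure D2:**
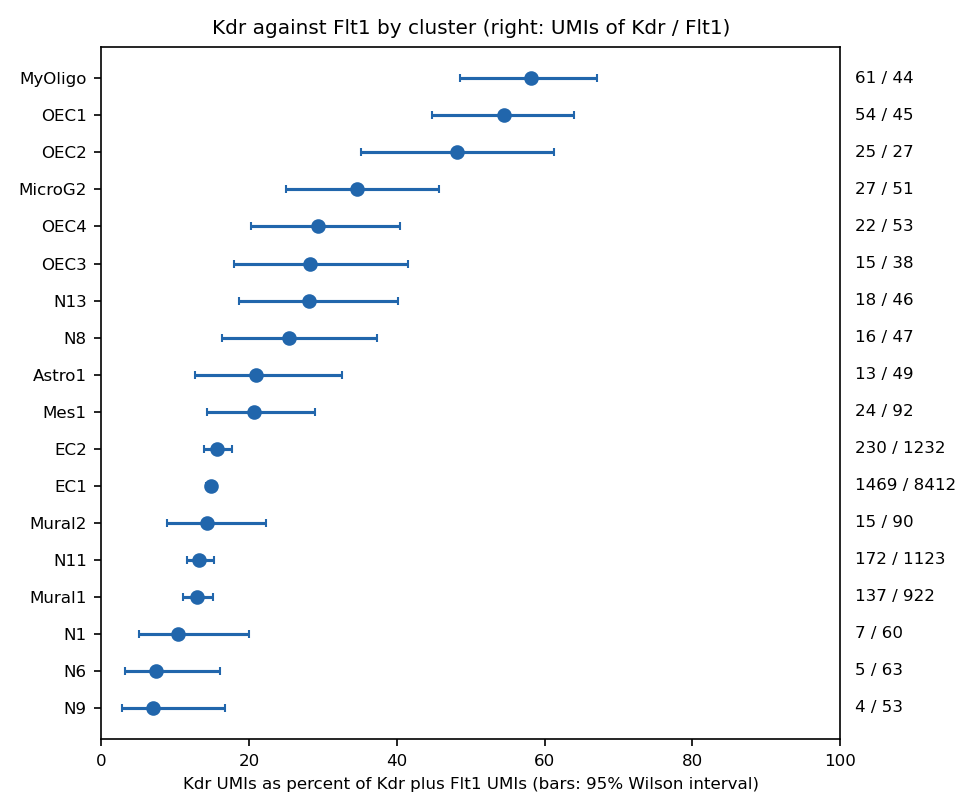
Kdr UMIs as a percent of the UMIs of Kdr and Flt1 (horizontal axis) in the 18 clusters with at least 50 UMIs of both genes together, 6 libraries pooled; points are shares, bars are 95% Wilson intervals, and the UMI counts of Kdr and Flt1 stand at the right. The intervals of 8 clusters lie above that of EC1, with MyOligo, OEC1 and OEC2 highest, and none lies below it.

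The highest levels of the ligands lay outside EC1. Vegfa (chr17:46016993-46032377) was highest in the astrocyte cluster Astro1, where it reached 217 and 251 CPM in the control libraries, 165 and 187 in the occluded ones and 268 and 210 in the trained ones. The mean of 216 ± 38.5 CPM stood above that of every other cluster by more than the spread, and 31.2% of Astro1 cells had a Vegfa UMI (11.2% at 500 UMIs). N11 followed at 110 ± 25.7, N14 at 89.8 ± 34.5, N15 at 64.3 ± 20.5, Astro3 at 62.5 ± 30.7 and OEC1 at 60.8 ± 45.2, and no neighbours among these differed beyond their spread. N11, whose cells often carried astrocyte markers, held 276 of the 779 neuronal UMIs of Vegfa. EC1 held 6.12 ± 1.70 CPM of Vegfa.

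By class, Vegfa stood at 173 ± 25.1 CPM in astrocytes, 43.4 ± 11.7 in oligodendrocyte precursors, 39.1 ± 10.4 in OECs, 31.9 ± 5.45 in mesenchymal cells and 24.5 ± 4.91 in neurons. Among the neuronal subclusters of the second annotation, Vegfa was highest in the mitral and tufted cells of subcluster n15-M/TC-1, the output neurons of the bulb, at 251 ± 121 CPM. That value rests on 38 UMIs in 90 cells and ranged from 32.1 to 395 CPM over libraries. A second mitral and tufted subcluster, n17-M/TC-3, followed at 63.8 ± 31.7 CPM (103 UMIs).

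Vegfb (chr19:6982472-6987651), a ligand of Flt1 tied to cell survival and metabolism more than to vessel growth, varied less between clusters than the other genes. Its highest cluster, N15 at 75.2 ± 20.8 CPM, was 1.85 times the median cluster, against 12.3 times for Vegfa and 155 times for Flt1. N7, N16 and Astro3 stood at 74.6 ± 29.7, 72.6 ± 35.1 and 71.6 ± 11.4 CPM and did not differ from N15 beyond the spread, and which cluster ranked first changed with the libraries and cells used. Vegfb was lower in the vessel wall, at 16.1 ± 4.15 CPM in EC1 and 11.4 ± 11.3 in Mural1.

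Vegfc (chr8:54077532-54186454), the ligand of Flt4, had 382 UMIs in all. By CPM it was highest in Mural1 at 71.7 ± 38.1, from 40 UMIs in 158 cells, and between 23.5 and 115 CPM in single libraries. By the share of cells with a Vegfc UMI at 500 UMIs per cell, the highest cluster was Mes2. The other mural cluster, Mural2, had 1.45 ± 2.24 CPM, from 2 UMIs. EC1 held 23.1 ± 11.2, the mesenchymal cluster Mes2 19.9 ± 12.2 and Astro1 15.4 ± 6.44 CPM, which did not differ beyond their spread. Without Mural1 and N11, EC1 was the highest cluster.

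Angpt1 (chr15:42424667-42676977), the activating ligand of Tek, was highest in Mes2 (230 cells) at 74.4 ± 22.8 CPM. The values in single libraries were 115 and 69.6 in control, 49.3 and 82.3 in occluded and 61.1 and 68.8 in trained mice. N16 at 29.8 ± 9.65, Astro1 at 25.1 ± 5.55 and Mes1 at 25.0 ± 11.1 followed without differences beyond the spread, and Mural2 held 13.8 ± 14.5. EC1, with most of the Tek, held 2.33 ± 1.56 CPM of Angpt1.

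Angpt2 (chr8:18690263-18741562), the ligand that can oppose Angpt1 at Tek, was highest in Mes1 at 33.3 ± 10.7 CPM. It stood at 18.8 ± 10.1 in EC1, 14.9 ± 16.1 in Mural1 and 11.5 ± 8.35 in Mural2. Single libraries ranged from 5.09 to 26.5 CPM in EC1. EC2 held 2.32 ± 3.86 CPM, from 3 UMIs.

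Counted by UMIs and not by level, abundant classes weigh more. Endothelial cells were 7.09% of annotated cells and held 75.6% of the UMIs of Flt1, 70.4% of Kdr, 73.9% of Flt4, 73.9% of Tek and 75.7% of Tie1. Neurons, 43.8% of cells, held 11.96% of the UMIs of Flt1, of which N11 had 1123 of 1526. Astrocytes, 10.2% of cells, held 42.2% of Vegfa, 28.8% of Vegfc and 37.1% of Angpt1. The largest share of Vegfc, 30.4%, was endothelial. OECs held 25.6% of Vegfa and 27.7% of Vegfb, and neurons held 23.0% and 40.3%. Neurons also held 25.0% of Angpt1 and 27.7% of Angpt2. Mesenchymal cells were 1.72% of cells and held 20.6% of Angpt1 and 18.2% of Angpt2. Of the Angpt2 UMIs, 34.3% were endothelial, between 10.0% and 51.2% in single libraries.

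**Figure D3:**
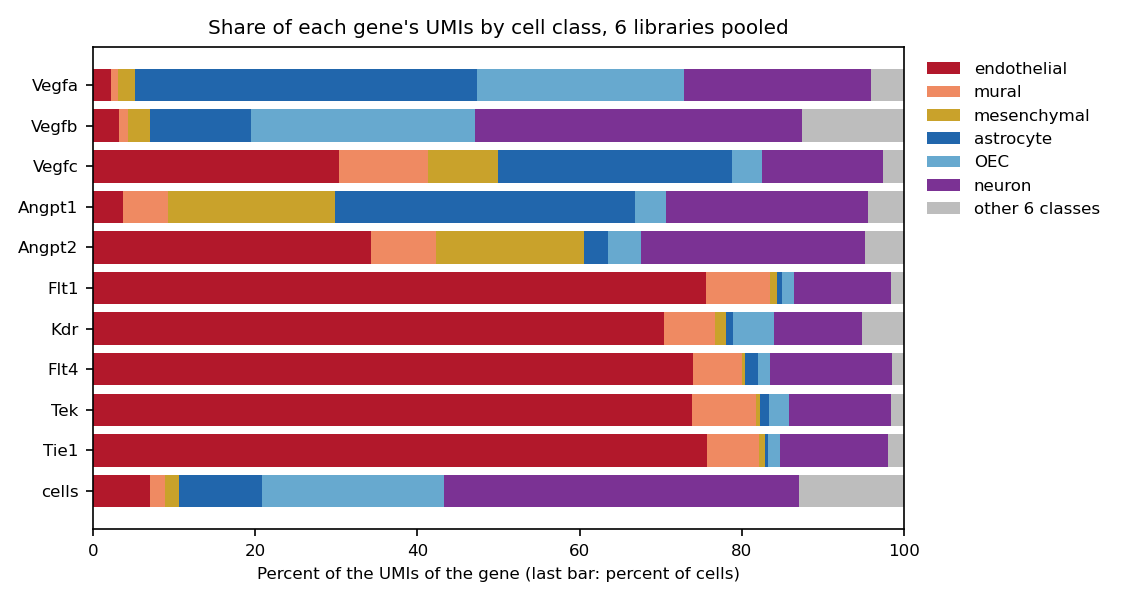
Percent of the UMIs of each gene (bars) that came from each cell class (colours), with the 6 libraries pooled and the share of cells of each class as the last bar. The 5 receptors are mostly red (endothelial), while Vegfa and Angpt1 are led by astrocytes at 42.2% and 37.1%.

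For each gene, the 3 genes with the most similar pattern were taken by Pearson correlation of log2(mean CPM + 1) over the 38 clusters, among 14253 genes. The clusters share libraries and differ in depth, so r is a description. Flt1 was most like Foxq1 (r = 0.966), Slco1a4 and Ly6c1, and Tek most like Ly6c1 (0.957), Mecom and Flt1. Tie1 was most like Ly6c1 (0.933), Clic5 and Ccm2l, Kdr most like Clic5 (0.904), Tie1 and Slc19a3, and Flt4 most like Sox18 (0.908), Tcf23 and Asb4. The ligands had weaker matches. Vegfa was most like Adam11 (0.869), Adam23 and Frmpd1, Vegfc most like Figf (0.872), Wfdc1 and Pdgfd, and Vegfb most like Fndc5 (0.769), Lrrc4b and Pcsk1n. Angpt1 was most like Cped1 (0.745), Aox1 and Prelp, and Angpt2 most like Cd248 (0.743), Lamc3 and Ecm2.

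Since all 5 receptors were highest in EC1, the RefSeq promoter windows of the genes (GRCm38.p6, 250 bases before to 50 after each start) were searched for AGGAAG, or CTTCCT on the other strand, a form of the core that ETS transcription factors, several of them active in endothelial cells, bind. Of the 5 receptors, 2 had a match, against 35.4% of the 32851 windows of the genome. Windows were at hand for 8 of the 10 genes. Offsets are counted from the start that each window was built on. The matches before it lay 129 and 53 bases upstream in Flt1 and 219 bases upstream in Tie1, where the other strand holds the core. A second match in Tie1 lay after the start. The windows of Flt1 (chr5:147725962-147726261) and Kdr (chr5:75978406-75978705) lie wholly inside the gene spans given above, and that of Tek (chr4:94739039-94739338) mostly so. Their starts are thus not the outer ends of those spans, and both Flt1 matches lie inside the Flt1 span. The matches before the start are shown with 12 bases on either side, in the direction of the gene and with the core in capitals.
Flt1 at chr5:147726123-147726152, minus strand: cgcccctccgggAGGAAGaagagggtaggt
Flt1 at chr5:147726047-147726076, minus strand: aggtgccggggtAGGAAGtgggctggggaa
Tie1 at chr4:118490051-118490080, minus strand: ggaagccactggCTTCCTccctttcctgtc
A match is a run of letters and not a measured binding site. The windows of Kdr, Flt4, Tek, Vegfa, Vegfb and Vegfc held none of these letters.

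The 3 conditions were compared in 6 classes (endothelial, mural, astrocyte, OEC, mesenchymal and neuron) on UMIs summed per class and library, with edgeR's quasi-likelihood test and Benjamini-Hochberg adjustment over all genes of a class at 0.05. Fold changes are log2 values ± SE, and CPM in single libraries are before TMM scaling. Of the 60 combinations of gene and class, 38 had enough counts to be tested. Where a summed level differs, fewer cells with the gene and less RNA per cell cannot be told apart from the sums alone. The comparisons with control share the control libraries. Where the libraries of a condition lie apart from the rest, this is a description, and how many of all genes show such an order was not counted.

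Occlusion against control gave 0 calls among the 38 tests, with 6 at an unadjusted p under 0.05, as had 5.16% of all tests. Over all genes, edgeR called 0.0245% of tests, and 0.0104% in endothelial cells. Training against control gave 0 calls, with 3 at an unadjusted p under 0.05 (7.42% of all tests), and edgeR called 0.0718% of all tests and 0.259% of the endothelial ones. Training against occlusion gave 1 call in 38, Angpt2 in endothelial cells, and 7 at an unadjusted p under 0.05 (10.2% of all tests), and edgeR called 0.609% of all tests and 0.591% of the endothelial ones. DESeq2, run on all 60 combinations, called 0 in each comparison, but its filter gave an adjusted p to only 35 of them for training against control and to 41 for training against occlusion, so the others could not be called. The median log2 fold change of the 38 tests was −0.05, −0.12 and 0.01 in these 3 comparisons, and that of all genes −0.0031, 0.0019 and 0.0028.

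Angpt2 was low in the endothelial cells of occluded mice. It stood at 20.3 and 19.9 CPM in control replicates 1 and 2, at 5.11 and 3.94 after occlusion and at 22.8 and 21.4 after training. Both occluded libraries lay below the other 4, and control and trained libraries were close to each other. The log2 fold change was 2.33 ± 0.461 for training against occlusion (edgeR adjusted p = 0.0280), −2.16 ± 0.458 for occlusion against control (adjusted p = 0.289) and 0.17 ± 0.324 for training against control (adjusted p = 0.932). Without the filter on low counts, occlusion against control passed as well (edgeR adjusted p = 0.0108).

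Few cells stood behind these values. The counts were 24 and 21 UMIs in control, 4 and 4 in occluded and 25 and 16 in trained libraries. They came from 7 of 698, 10 of 644, 3 of 416, 4 of 724, 14 of 739 and 10 of 427 endothelial cells, or 1.00% and 1.55%, 0.721% and 0.552%, and 1.89% and 2.34%. In control replicate 1, 1 cell held 12 of the 24 UMIs, and in control replicate 2, 1 cell held 9 of 21. The call did not pass without occluded replicate 1 (adjusted p = 0.188), occluded replicate 2 (0.334) or trained replicate 1 (0.200). DESeq2 gave a log2 fold change of 2.35 ± 0.772 with an unadjusted p of 0.00231, and its filter left the gene without an adjusted p.

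Markers of other cell classes were measured beside Angpt2, and their part in the difference was not tested. In the endothelial class, the 8 mesenchymal markers summed to 765 and 627 CPM in control and 1036 and 876 in occluded libraries. In trained libraries they summed to 566 and 509 CPM, and none of the 8 was at 0. Most of this sum was Apod, at 308 CPM in EC1 and 2253 in EC2. No other of the 8 exceeded 8.84 CPM in EC1 or 18.1 in EC2. Apod was highest in the ensheathing cluster OEC4, at 12754 CPM, so this sum does not mark mesenchymal RNA alone. The 8 OEC markers were also highest in the occluded libraries, at 3299 and 3323 CPM, against 2552 and 1864 in control and 1899 and 1783 in trained ones. The 5 monocyte and 6 microglia markers were highest there too, at 74.0 and 49.2 CPM and at 134 and 97.5 CPM, against at most 30.8 and 84.4 CPM in the other libraries. Angpt2 itself was low in OECs, microglia and monocytes, at 0.492, 1.06 and 1.78 CPM. The 8 mural markers summed to 597 to 756 CPM over all libraries. Neurons held 27.7% of the Angpt2 UMIs. The 6 neuronal markers in the endothelial class summed to 738 and 683 CPM in control, 684 and 562 in occluded and 769 and 586 in trained libraries. In mesenchymal cells, where its level was highest, Angpt2 stood at 30.5 and 11.1, 15.8 and 28.3, and 26.0 and 24.9 CPM in control, occluded and trained mice, and these groups overlapped (log2 fold change of training against occlusion 0.32 ± 0.583, adjusted p = 0.997).

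**Figure D4:**
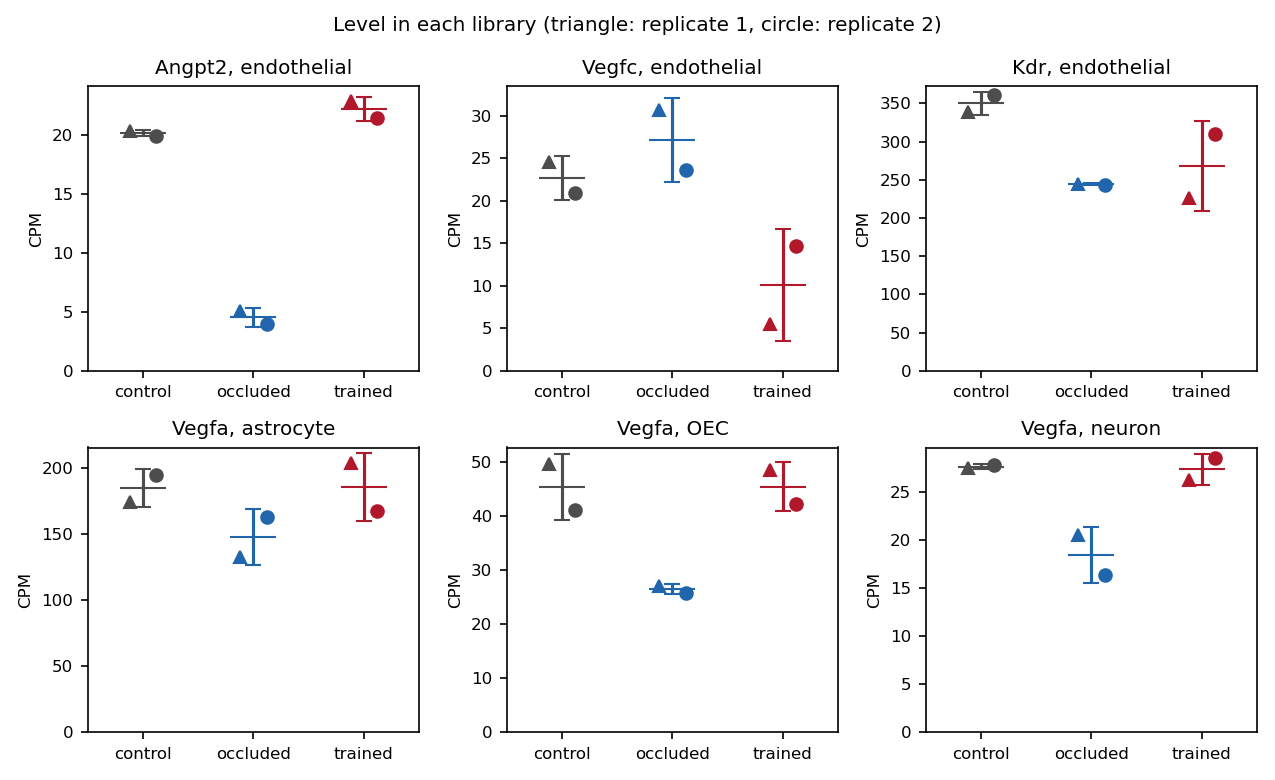
CPM (vertical axes, from 0) of Angpt2, Vegfc and Kdr in endothelial cells and of Vegfa in astrocytes, OECs and neurons, in control, occluded and trained libraries; triangles are replicate 1, circles replicate 2, and the horizontal marks with bars are the mean ± SD of 2 libraries. The 2 occluded libraries sit at the bottom of the Angpt2 panel and of the 3 Vegfa panels. Only Angpt2 passed the test with the filter on low counts, all libraries and no block on the replicate number.

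Vegfa had lower values after occlusion in the 3 classes with most of its UMIs. No difference passed the test with the filter on low counts, all libraries and no block on the replicate number. A Vegfa UMI was found in 20.4% of astrocytes, 6.03% of OECs and 2.72% of neurons (7.80%, 1.72% and 1.02% at 500 UMIs), against 0.925% of microglia (0.300%), the immune cells of the brain, which had 5.16 CPM. The median depths were 1273.5, 1753, 1013 and 1719 UMIs, and free RNA in the droplets was not measured here. In OECs it stood at 49.7 and 41.2 CPM in control, 27.1 and 25.8 in occluded and 48.7 and 42.3 in trained libraries. In neurons the values were 27.5 and 27.8, 20.5 and 16.4, and 26.2 and 28.5 CPM. In astrocytes they were 174 and 195, 133 and 163, and 204 and 167 CPM. Both occluded libraries lay below the other 4 in each of these classes, which come from the same 6 libraries. In endothelial and mesenchymal cells, where Vegfa was also tested, they did not. Endothelial Vegfa was lowest in trained replicate 2, at 5.36 CPM, against 8.93 and 8.86 in occluded libraries. Mesenchymal Vegfa was lowest in control replicate 2, at 25.8 CPM, against 27.6 and 33.5 in occluded ones.

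The log2 fold change of Vegfa for training against occlusion was 0.80 ± 0.152 in OECs (adjusted p = 0.0812), 0.62 ± 0.155 in neurons (adjusted p = 0.0568) and 0.37 ± 0.138 in astrocytes (adjusted p = 0.377). For occlusion against control it was −0.80 ± 0.149 (adjusted p = 0.492), −0.64 ± 0.154 (0.266) and −0.35 ± 0.137 (0.926). With the replicate number as a block, Vegfa passed for training against occlusion in OECs (adjusted p = 0.0496) and neurons (0.0434). That number is also the sex of the pool. Without the filter on low counts, it passed in both classes for occlusion against control (adjusted p = 0.000823 and 0.0270) and for training against occlusion (0.000394 and 0.0122). For training against occlusion it also passed in OECs without trained replicate 2 (0.0147) and in neurons without occluded replicate 1 (0.0477), each with 1 library left in that group. Without N11, the log2 fold change in neurons for training against occlusion was 0.59 ± 0.243 (edgeR adjusted p = 0.350). The astrocyte markers in the OEC class summed to 3544 to 3814 CPM over all libraries. The 6 neuronal markers there summed to 534 and 466 CPM in control, 406 and 336 in occluded and 577 and 411 in trained libraries, lowest in the occluded ones as Vegfa was, with none of the 6 at 0, and their part in the difference was not tested. Within OEC1 alone, Vegfa ranged from 14.2 and 25.6 CPM in the occluded libraries to 143 in trained replicate 1.

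Vegfc in endothelial cells had its lowest values after training, at 5.48 and 14.7 CPM, against 24.5 and 20.9 in control and 30.6 and 23.6 in occluded libraries. Both trained libraries lay below the other 4. The log2 fold change was −1.25 ± 0.416 against control (adjusted p = 0.360) and −1.47 ± 0.418 against occlusion (adjusted p = 0.146). Without trained replicate 2, the second value was −2.20 (adjusted p = 0.0336), from 6 UMIs in 1 trained library that was assumed to vary like the other groups. It also passed without a filter on low counts (adjusted p = 0.0318). The trained libraries held 6 and 11 of the 116 UMIs, with at most 2 and 3 of them in 1 cell. In occluded replicate 1, 1 cell held 7 of 24 UMIs, and in occluded replicate 2 at most 2 of 24. In control the most in 1 cell was 4 of 29 and 2 of 22.

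Of the receptors, Kdr had its highest endothelial levels in control libraries, at 339 and 361 CPM, against 245 and 243 after occlusion and 226.7 and 309 after training. All 4 values of manipulated mice lay below both control values. By cells the groups overlapped. A Kdr UMI was found in 33.7% and 35.7% of endothelial cells in control, 31.5% and 24.3% in occluded and 23.3% and 36.5% in trained libraries, not set to equal depth. The endothelial log2 fold change of Kdr against control was −0.53 ± 0.151 for occlusion (adjusted p = 0.599) and −0.37 ± 0.150 for training (adjusted p = 0.502), neither past the threshold. In neurons it was −0.97 ± 0.268 for occlusion against control (edgeR adjusted p = 0.376), and it passed without the filter on low counts (0.0181). Of the 261 neuronal UMIs of Kdr, N11 held 172.

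The other receptors had endothelial levels that overlapped between conditions or differed by less than the test could call. Flt1 stood at 1580 and 1653 CPM in control, 1778 and 1474 in occluded and 1613 and 1846 in trained libraries. Its log2 fold changes were −0.01 ± 0.115, 0.12 ± 0.115 and 0.13 ± 0.115 for occlusion against control, training against control and training against occlusion. Those of Tek were 0.13 ± 0.137, 0.11 ± 0.138 and −0.02 ± 0.139. In neurons, Tek had −0.83 ± 0.244 for training against occlusion (edgeR adjusted p = 0.103), which passed without the filter on low counts (0.0375). Of the 250 neuronal UMIs of Tek, N11 held 167. Tie1 had its lowest value, 126 CPM, in trained replicate 1, against 166 in trained replicate 2 and 171 to 187 in the other libraries, and its log2 fold change for training against occlusion was −0.28 ± 0.154 (adjusted p = 0.537). Flt4 stood between 27.5 and 38.1 CPM over the 6 libraries, from 193 UMIs.

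**Figure D5:**
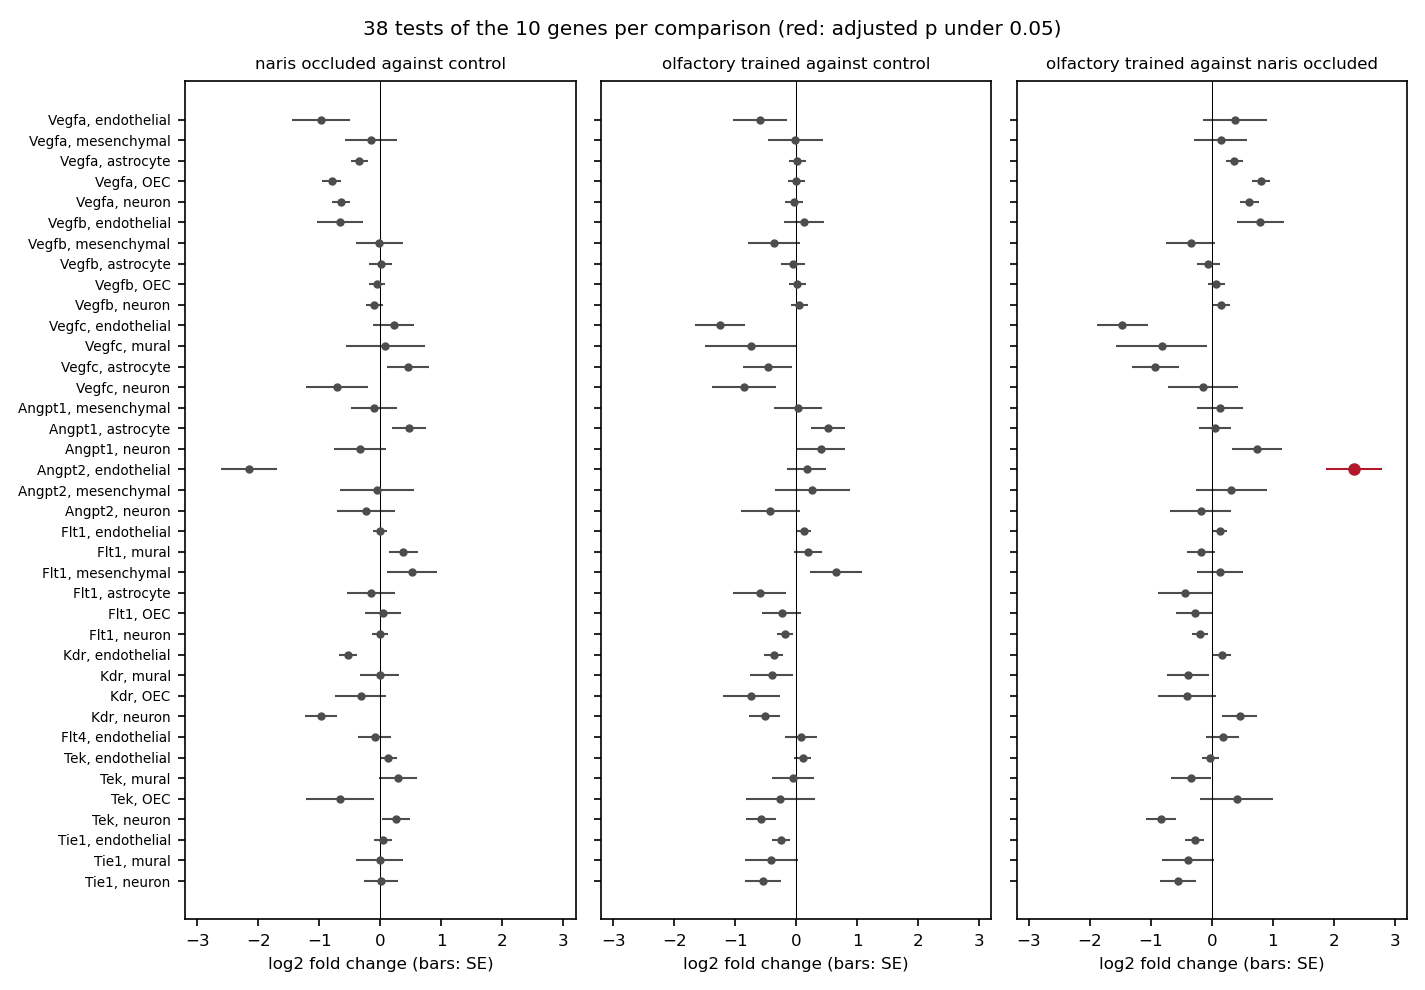
Log2 fold change (horizontal axes; bars are SE) of the 38 tested combinations of gene and class in the 3 comparisons of conditions. The endothelial Angpt2 value for training against occlusion, 2.33, is the only one drawn in red for an adjusted p under 0.05.

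Whether a gene's response to occlusion or training differed between classes was tested in each of the 15 pairs of classes. None of 264 tests of the 10 genes passed (edgeR, smallest adjusted p = 0.636), 10 had an unadjusted p under 0.05, and DESeq2 was not run on these differences. Over all genes, 0.0303% of these tests were called for occlusion and 0.0635% for training. For Angpt2 under occlusion, the fold change in mesenchymal cells minus that in endothelial cells was 2.13 on the log2 scale (unadjusted p = 0.00911, adjusted p = 1 in edgeR).

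A further 43 gene symbols of the pathway were chosen as ligands and co-receptors, hypoxia response, receptor signalling, endothelial response and endothelial transcription factors. Of these, 41 were in the table, and 21 were highest in the endothelial class. Pecam1 and Cdh5 among them are also in the list of endothelial markers. The share of all genes highest in that class was not counted, so the 21 are a description of the list. Figf and Vegfd are symbols of the same gene, which the table holds as Figf. The examples that follow were chosen after their values were seen. The 9 genes listed as endothelial transcription factors, a list made for that expression, were highest in endothelial cells, among them Sox17 at 360 ± 57.5 CPM and Erg at 71.4 ± 8.90. Ptprb, the phosphatase that restrains Tek, reached 534 ± 59.0 CPM in endothelial cells. Other partners lay elsewhere. Pgf, a ligand of Flt1, was highest in OECs at 60.5 ± 2.498 CPM, Nrp1, a co-receptor for VEGF, in macrophages at 391 ± 47.7 and Hif1a, the hypoxia factor, in oligodendrocyte precursors at 150 ± 22.8.

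Of these genes, 39 could be tested in at least 1 class, in 145 tests per comparison of which 34 were endothelial. In each comparison with trained mice 1 test passed, where 0.259% and 0.591% of all endothelial genes were called against control and against occlusion. It was Klf4 in endothelial cells, a transcription factor that responds to blood flow and is also an early response gene. It stood at 234 and 226 CPM in control, 218 and 228 in occluded and 552 and 454 in trained libraries, so both trained libraries lay above the other 4. The log2 fold change was 1.16 ± 0.147 against control (edgeR adjusted p = 0.00152) and 1.22 ± 0.149 against occlusion (adjusted p = 0.00101), and 0 of these genes passed in the downward direction. For occlusion against control, 0 of the 39 passed. The median log2 fold change of the 34 genes tested in endothelial cells was −0.06 for occlusion and 0.05 for training against control and 0.25 for training against occlusion, and that of all endothelial genes −0.0028, 0.0020 and 0.0066. In EC2 alone the calls were lost (0.82 and 0.95, adjusted p = 0.739 and 0.287), and without occluded replicate 2 the second one was (adjusted p = 0.0766). The median mitochondrial share of trained libraries was 14.4% and 10.5%, and its part in the Klf4 difference was not tested.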

How the data were processed

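The deposited counts are UMI counts per gene and cell barcode that the authors made with Cell Ranger 2.0.0 on build mm10 (submitters' processing notes), keeping barcodes with at least 200 genes and removing doublets; clusters came from Seurat 2.2.1. The mitochondrial share was deposited by the authors as a fraction per cell. Columns were joined to libraries through the deposited library column, since names of 17275 cells in the trained libraries start with the other replicate's prefix. Cluster names are the deposited ones, and some astrocyte, OEC, mesenchymal, microglia and neuron clusters carry other numbers there than in the study's text.

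Counts were summed per class or cluster and library and tested with edgeR 4.0.16 (quasi-likelihood, TMM, filterByExpr, all 6 libraries in 1 fit, Benjamini-Hochberg over all genes of a class) in R 4.3.3. DESeq2 1.42.0 was an alternative. A single value of 2 libraries against 2 cannot go below p = 0.333 in an exact permutation test. Class differences were tested with a library term. The members and gene lists were chosen with earlier results of these data known. All 10 genes are named, with the 3 most similar genes each (at least 10 CPM in 1 cluster) and the pathway genes that passed. The test of training against occlusion was run on simulated data with 200 changed genes. It called 41.5% of 1 log2 changes and 87% of 2 log2 changes among 9643 genes in endothelial cells. In mesenchymal cells it called 4.5% and 80.5% among 5833 genes. The changed genes were drawn from all tested genes, and no effect shared by replicate number was simulated. These shares therefore need not hold for genes with few UMIs, such as Angpt2 and Vegfc. Libraries are pools of mice, so p-values measure the spread between pools.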

Additional observations from a re-analysis of the deposited data

Results flagged for a closer look

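Tie1 in endothelial cells stood apart in trained replicate 1, at 126 CPM, where the gap to the nearest library was 0.655 of the range over the 6 libraries, past Dixon's critical value. It was 1 of 40 such comparisons past that value. The comparisons took a class and a cluster for each gene, so they overlap. They counted the high and the low end of each set of 6 libraries apart, and chance gives about 1 in 20 for both ends together. That library also had the highest median mitochondrial share, 14.4%, whose part was not tested.

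The 1123 barcodes that the authors left without a cluster (median 2327 UMIs) entered no comparison, and all 10 genes were detected in them. Vegfa stood at 91.7 CPM there, against 38.8 in annotated cells, and Vegfb at 43.1 against 39.2. Flt1 stood at 64.2 against 146, Kdr at 13.6 against 27.7, Tek at 12.9 against 22.95, Tie1 at 9.60 against 14.8 and Flt4 at 1.99 against 2.995. Vegfc stood at 3.97 against 4.38, Angpt1 at 5.30 against 5.23 and Angpt2 at 1.32 against 3.14, the last from 4 UMIs.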

How the results depend on the processing

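Of the 10 genes, 0 were called for occlusion against control except without a filter on low counts, where 4 tests passed, and 0 for training against control under every alternative. For training against occlusion the 1 call became 0 with DESeq2, which gave Angpt2 no adjusted p, and 0 in EC2 alone, where Angpt2 had too few counts to be tested, 5 without the filter, 3 with the replicate block, and 0 to 3 with 1 library left out. The log2 fold change of Angpt2 stayed between 2.14 and 2.49. The replicate number is also the sex of the pools, which were of different mice. Deviations of same-numbered libraries correlated at 0.0342 to 0.243 (16 of 18 over 0.1), and the block on this number served as an alternative.

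Pathway calls for occlusion against control (0) were 1 without the filter and 1 with the block, and 0 to 1 with 1 library left out. For training against control (1) they were 2 with 4 libraries in the fit, with cells of at least 1000 UMIs and with the largest cluster of each class, 0 in EC2 alone, 8 without the filter, 4 with the block and 1 to 5 with 1 library left out. For training against occlusion (1) they were 3 with 4 libraries, 3 with deep cells, 0 in EC2 alone, 9 without the filter, 3 with the block and 1 to 5.

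Over all genes, the 14 calls for occlusion against control were 23 with EC2 alone, 267 without the filter, 30 with the block and 12 to 59 with 1 library left out. The 41 for training against control were 66 in deep cells, 62 with DESeq2, 18 with EC2 alone, 78 with the largest clusters, 508 without the filter, 112 with the block and 30 to 346. The 348 for training against occlusion were 117 with the largest clusters, 221 with library totals, 1317 without the filter, 533 with the block, 185 without N11 (added after seeing the data) and 93 to 962. The cause was not tested. The largest cluster of a class was taken by its number of cells under the deposited names. At least 8 of the 10 genes had the same highest cluster under each alternative. TMM scaling gives no UMI shares, so that alternative has no value there.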
